A study of Mus musculus with 16 samples.

Results

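A pair of histone transgenes that differ at a single residue is compared here, with expression read across all genes. Both encode the variant histone H3.3 with a tryptophan in place of glycine at position 34 (G34W), and one of them also carries an arginine in place of lysine at position 36 of the same tail (G34W K36R). The comparison rests on 4 of the 16 libraries of the series, 2 for H3.3 G34W K36R and 2 for H3.3 G34W, and on the 12640 of 20325 genes whose deposited value averaged at least 10 over those 4 libraries. Every group was made in C3H10T1/2, an established mouse line with properties of mesenchymal stem cells. Transgenes came in by lentivirus for 2 days, puromycin at 1.5 µg/ml followed for 4 days, and RNA enriched for messenger RNA was sequenced. The endogenous H3 genes were left in place in all groups, so each transgene product was present beside unchanged H3, and no group carried K36R without G34W. The other groups used below are H3.3 wild type, H3.3 G34R, H3.3 K27R, H3.3 with both G34W and K27R, and the H3.1 histone either as wild type or with G34W, with 2 libraries each. Nothing in the labels tells whether a group's 2 libraries were grown apart, and the p-values then reflect only library-to-library spread, possibly of technical origin.

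Lysine 36 of H3 is methylated by NSD1, NSD2 and NSD3, which add up to a pair of methyl groups, and by SETD2, which adds the last one during transcription. Methylation at this lysine hinders PRC2, the Polycomb complex whose subunit EZH2 methylates lysine 27 on the same tail to keep developmental genes silent. Glycine 34 lies beside lysine 36, and G34W is known from giant cell tumour of bone. An arginine at position 36 cannot be methylated by these enzymes.

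Both G34W K36R libraries were deeper than both G34W libraries, at an estimated 34.78 and 38.57 M reads against 30.75 to 33.82 M. They also resembled each other far more closely than the G34W pair did. Among genes with at least 1000 reads, the log2 ratio of the 2 libraries had an SD of 0.053 in G34W K36R and 0.536 in G34W, and 2172 of the 12640 genes differed at least 2-fold between the G34W libraries against 185 between the G34W K36R libraries. Over all tested genes the group nearest to G34W K36R was not an H3.3 group: the median absolute log2 difference was 0.24 from H3.1 G34W, 0.44 from G34W, 0.45 from H3.1 wild type and 0.43 to 0.50 from the other 4. G34W K36R shared with the H3.1 libraries a shift of chromosome 6 genes and a low level of *Eln*. With all of them except H3.1 wild type replicate 2 it also shared a trend with transcript length. These shared features are given with their values further on. A weaker length trend was present in G34W replicate 2. Against H3.3 wild type it went from -0.23 for transcripts of up to 600 bases to 0.06 for those over 6000 bases. The labels used here give no batch, so a difference in library batch or cell stock cannot be told apart from the effect of the transgene in any fold change or call that follows. Of the mesenchymal stem cell markers, 9 of 10 were tested, with 1 higher and 1 lower, and their summed value was 284549 to 285343 in G34W K36R and 284391 to 296434 in G34W. Most of that sum is vimentin (*Vim*, 188052 and 187360.4 against 189728 and 216151), while *Prrx1*, a mesenchymal transcription factor gene, was 2.44-fold higher (adjusted p = 0.00202) and *Eng*, endoglin, 1.93-fold lower between means (adjusted p = 0.0112, but 0.0577 and 0.0738 without G34W K36R replicate 1 or 2). Neither was called with close pairs as 1 sample (adjusted p = 0.238 and 0.365). No library was left out, and the main counts and those of the lists described are also given with the libraries of a close pair (every group except G34W and both H3.1 groups) counted as 1 sample.

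The G34W K36R libraries differed broadly from the G34W libraries. In limma's moderated test over all groups, 3901 genes (30.9% of those tested) passed an adjusted p of 0.05, the threshold used throughout, 1827 of them higher (14.5%) and 2074 lower (16.4%) in G34W K36R. The largest changes were mostly falls: 160 genes were at least 16-fold lower and 52 at least 16-fold higher. In all 3901 genes the libraries of the 2 groups did not overlap, as was so for 8857 (70.1%) of all tested genes. Of the genes called, 404 had a mean under 10 in 1 group and passed the filter only through the other. At the filter itself, *Sez6l2* averaged 10.0 and was kept, and *Lingo2* averaged 9.94 and was not. The count depended on how the spread was estimated. It was 132 (1.04%), all of them among the 3901, with close pairs counted as 1 sample, of which 50 were higher (0.396%) and 82 lower (0.649%). It was 1387 (11%) in a fit of the 4 libraries alone, 1739 without G34W K36R replicate 1 and 1663 without replicate 2. Fewer transcripts in every cell and fewer cells with the transcript cannot be told apart in bulk RNA.

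**Figure D1:**
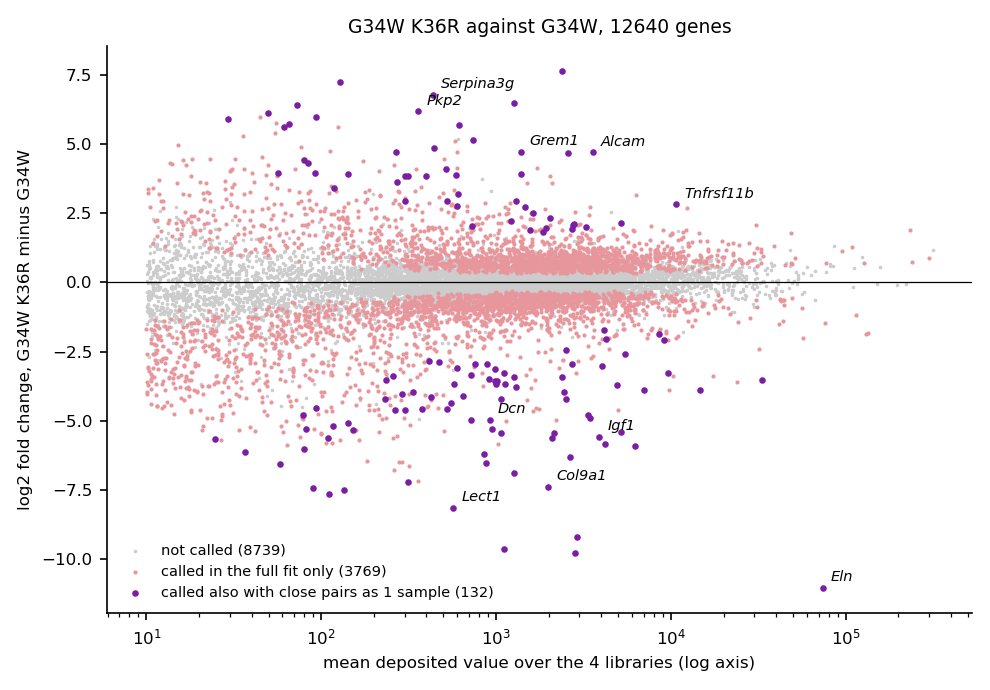
Log2 fold change of G34W K36R over G34W (vertical axis) against the mean deposited value over the 4 libraries (horizontal log axis), 1 point per tested gene. The 132 genes called also with close pairs counted as 1 sample reach from *Eln* at -11.03 to *Hist1h2ao* at 7.63, while the other 3769 called genes surround the 8739 that were not called.

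Elastin marked the extreme of the comparison. *Eln*, which encodes the core protein of elastic fibres, had values of 141239 and 153881 in G34W and 63.7 and 75.8 in G34W K36R. It was thus abundant in G34W and low, though above the test's filter, in G34W K36R, 2115-fold between means (log2 fold change -11.03, SE 0.33, adjusted p = 1.2e-07, and 0.00065 with close pairs as 1 sample). Its level elsewhere was 39418 to 39433 in H3.3 wild type, 9424 and 10563 in G34W K27R and 9.77 to 26.9 in the 4 H3.1 libraries. *Lect1*, the gene of the cartilage glycoprotein chondromodulin, was at 1200.4 and 1062 in G34W and at 1.96 and 4.41 in G34W K36R (adjusted p = 2.5e-06, and 0.00739 with close pairs as 1). *Pcsk5*, a proprotein convertase gene, stood at 312 and 131 in G34W and at 0 in both G34W K36R libraries, at least 79.3-fold lower against a floor of 3 reads per library. *Cmtm5* was likewise at 0 in both, from 238 and 122, at least 64.6-fold lower. *Bmx*, which encodes a tyrosine kinase, fell from 805 and 437 to 4.89 and 1.76, and *G0s2*, whose product inhibits adipose triglyceride lipase, from 2691 and 2314 to 30.3 and 13.2. In these 6 genes both G34W libraries lay far above both G34W K36R libraries, where a lack of overlap was a condition for naming. The 4 H3.1 libraries were low as well, between 0 and 26.9.

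The other genes of the 15 largest named falls were *Olfm2*, *Fxyd6*, *Col9a1*, *Adamts15*, *Lmo2*, *Cytl1*, *Hist2h2aa2*, *Fam19a5* and *Mal*. Several of them differed widely within G34W itself. *Mal*, a myelin and lymphocyte membrane protein gene, read 27.2 and 1087 in G34W against 0.978 and 0.882, and *Olfm2* read 10548 and 808 against 1.96 and 2.64. *Hist2h2aa2* has near-identical copies and its assignment is uncertain. Of the 15, 11 were called with close pairs as 1 sample, and *Adamts15*, *Lmo2*, *Cytl1* and *Mal* were not (adjusted p = 0.0886, 0.0776, 0.0546 and 0.189).

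Among the 14 largest rises reported, most genes were near silent in G34W. *Serpina3g*, a serine protease inhibitor gene of the chromosome 12 cluster, was at 4.69 and 9.85 in G34W and at 874 and 854 in G34W K36R, 119-fold between means (adjusted p = 1.9e-05, and 0.0161 with close pairs as 1). H3.3 wild type had 1972 and 1983. *Itih2*, which encodes a heavy chain that binds hyaluronan, rose from 46.0 and 15.3 to 2443 and 2536, and *Pkp2*, a desmosomal plaque gene, from 5.63 and 13.1 to 681 and 727. *Gpr176*, an orphan receptor gene, rose from 14.1 and 35.0 to 1193 and 1218. *Theg* had no reads in either G34W library and values of 54.8 and 62.6 in G34W K36R, at least 19.3-fold higher. *P2ry1*, an ADP receptor gene, had 1 read over both G34W libraries and 97.0 and 100.5 in G34W K36R, a ratio of 181 with a 95% counting interval of 34.6 to 7736. Each of these 6 genes was higher in both G34W K36R libraries than in both G34W libraries, as the choice of named genes required. The 4 H3.1 libraries also lay above both G34W libraries in these 6 genes. They read 2947 to 3765 for *Itih2*, 1389.8 to 2251 for *Pkp2*, 967 to 2341 for *Gpr176* and 64.4 to 146 for *Theg*. Values were lower there for *Serpina3g* (54.4 to 205) and *P2ry1* (13.9 to 39.4). *Gpr176* was at 1856 and 1839 in G34W K27R too. The other rises reported were *Hist1h2ao*, *Tceal3*, *Ptchd1*, *Hdx*, *Sorcs1*, *Chodl*, *Kcnj15* and *Siglecg*. *Hist1h2ao* had the largest log2 fold change, 7.63, from 20.7 and 25.3 to 4571 and 4895, but replication-dependent histone genes have near-identical copies and the assignment is uncertain. With close pairs as 1 sample 11 of the 14 were called. *Hdx*, *Chodl* and *Siglecg* were not (adjusted p = 0.0598, 0.197 and 0.216).

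**Figure D2:**
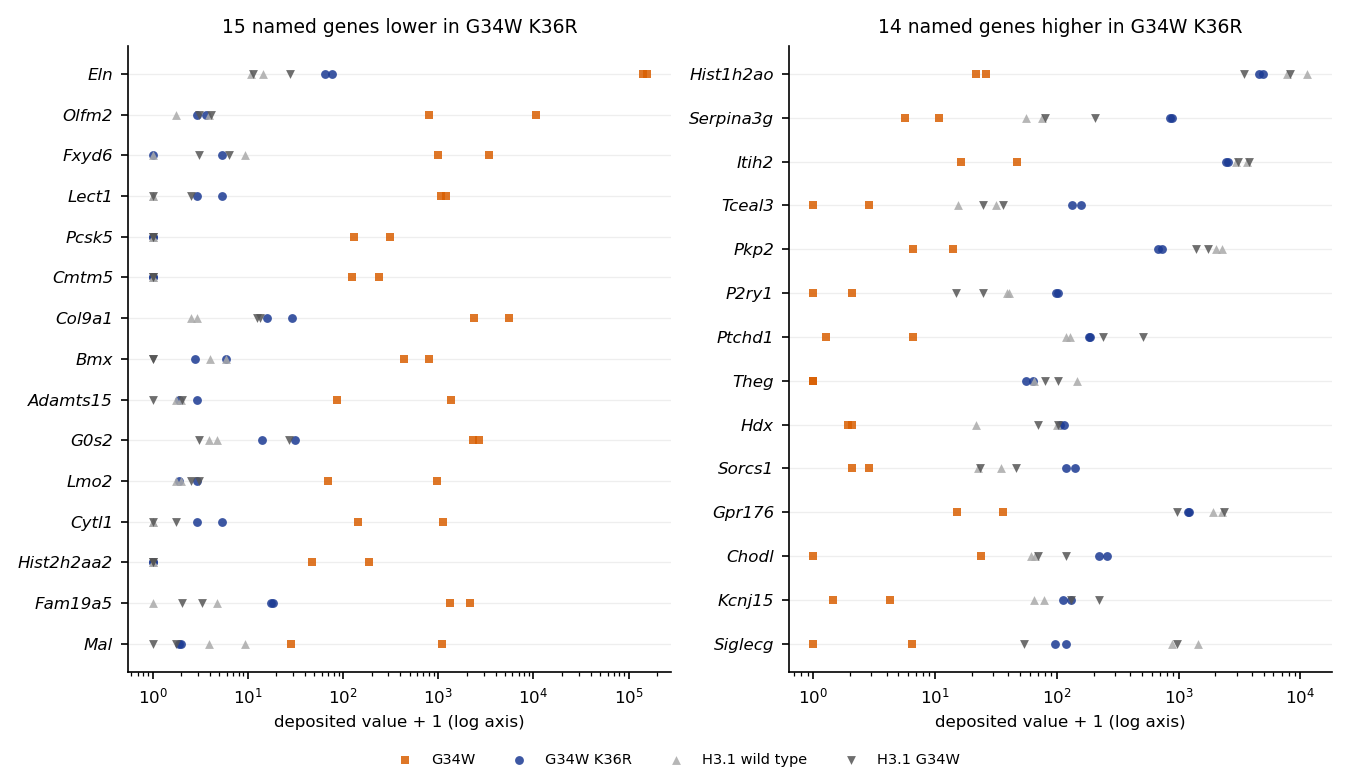
Deposited value plus 1 (horizontal log axis) in each library of G34W, G34W K36R and both H3.1 groups for the 15 largest named falls and the 14 largest rises reported, 1 point per library. Orange squares (G34W) and blue circles (G34W K36R) do not overlap, which was a condition for naming these genes. For *Eln*, *Lect1*, *Theg*, *Itih2*, *Pkp2* and *Gpr176*, among others, the grey H3.1 points lie on the side of G34W K36R.

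Chondrocyte genes made up the list with the lowest median, and 68.2% of those tested were called beside 30.9% of all genes. Of 22 tested members 15 were lower and none higher, and the median log2 fold change was -3.09 beside -0.03 for all genes; 5 were called lower with close pairs as 1 sample. The 3 collagen IX genes of the list were all called lower. *Col9a1* was at 2372 and 5538 in G34W and at 28.4 and 15 in G34W K36R (log2 fold change -7.39, SE 0.37, adjusted p = 2.5e-06), and *Col9a2* and *Col9a3* had log2 fold changes of -4.47 and -4.02. *Epyc*, a dermatan sulphate proteoglycan gene, fell from 343 and 53.6 to 3.91 and 0.882. *Hapln1*, whose product links aggrecan to hyaluronan, read 11.3 and 283 in G34W and 0 and 1.76 in G34W K36R, but lost its call without G34W K36R replicate 1 (adjusted p = 0.0765). *Sox9*, the transcription factor gene at the head of this programme, fell by less, from 8109.7 and 11154 to 5856 and 5907 (log2 fold change -0.69, SE 0.15, adjusted p = 0.00692), and its adjusted p was 0.0517 or 0.0504 without either G34W K36R replicate. *Col2a1*, the main cartilage collagen gene, was not called (log2 fold change -0.60), with both G34W K36R libraries between the 2 G34W libraries. Of the 4 chondrocyte markers used as a check of cell type, *Acan* and *Matn1* fell below the filter and were not tested. In G34W *Acan* read 1.88 and 19.7 and *Matn1* 2.82 and 7.65. Both were at 0 in both G34W K36R libraries, and also in both G34W K27R libraries and the 4 H3.1 libraries. The summed value of the 4 markers was 17208 to 17532 in G34W K36R against 12492 and 80801 in G34W. The list's count ranged from 13 without G34W K36R replicate 1 to 19 without G34W replicate 1.

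The promoters of 3 of the 5 chondrocyte genes called lower with close pairs as 1 sample are shown because these genes moved together and SOX9 is a known activator of cartilage genes. Each runs from 250 bases before to 50 bases after the RefSeq gene start, 5′ to 3′ on the gene's strand (build GRCm38.p6, whereas the deposited values were made on mm9). Capitals mark the SOX core letters ACAAT or ACAAAG, searched on both strands. *Lect1* is listed as Cnmd at chr14:79662134-79662433 on the minus strand, *Col9a1* at chr1:24177360-24177659 on the plus strand and *Pth1r*, the parathyroid hormone receptor gene, at chr9:110747096-110747395 on the minus strand.
Lect1: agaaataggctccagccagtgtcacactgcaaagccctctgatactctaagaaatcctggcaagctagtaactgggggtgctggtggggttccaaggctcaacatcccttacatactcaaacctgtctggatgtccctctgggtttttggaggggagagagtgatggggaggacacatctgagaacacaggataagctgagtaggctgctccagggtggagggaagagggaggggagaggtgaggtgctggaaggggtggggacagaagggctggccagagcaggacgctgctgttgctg
Col9a1: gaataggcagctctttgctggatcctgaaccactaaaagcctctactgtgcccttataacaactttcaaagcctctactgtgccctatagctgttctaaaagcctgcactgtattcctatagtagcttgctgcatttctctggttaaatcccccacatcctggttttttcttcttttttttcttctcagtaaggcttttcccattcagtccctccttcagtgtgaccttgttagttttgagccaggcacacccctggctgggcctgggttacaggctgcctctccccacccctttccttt
Pth1r: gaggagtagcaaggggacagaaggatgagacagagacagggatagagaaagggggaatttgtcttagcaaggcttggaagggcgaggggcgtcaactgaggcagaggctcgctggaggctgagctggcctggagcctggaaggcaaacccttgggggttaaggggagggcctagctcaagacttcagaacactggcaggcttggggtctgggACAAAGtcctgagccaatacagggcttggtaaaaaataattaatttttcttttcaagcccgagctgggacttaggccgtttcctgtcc
Of the 4 of these 5 genes that matched an entry, 1 (*Pth1r*) held a match, and 43.4% of the 27025 promoters in the table did. The letters describe this window only.

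**Figure D3:**
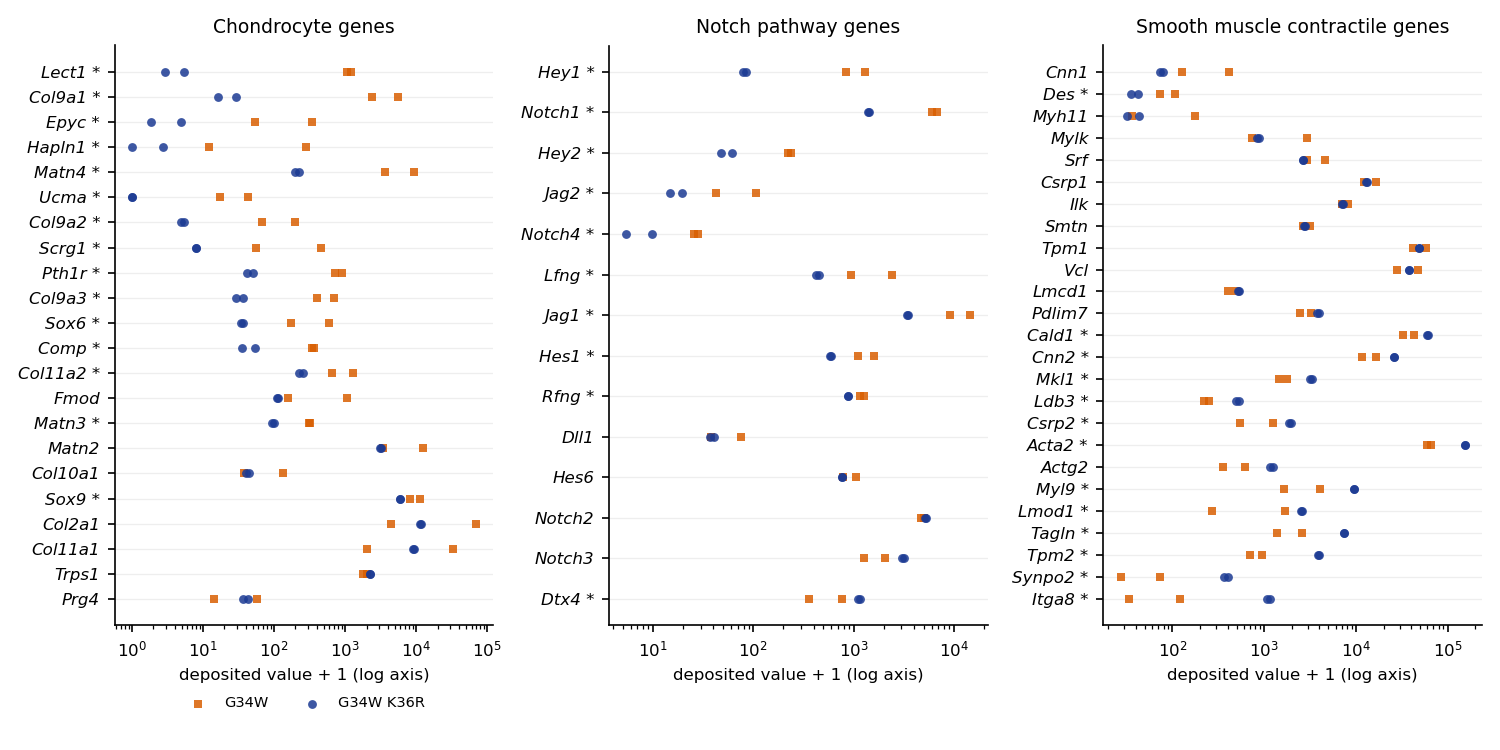
Deposited value plus 1 (horizontal log axis) in each G34W (orange squares) and G34W K36R (blue circles) library for the tested members of 3 lists, with an asterisk for genes called. The 15 asterisked chondrocyte genes and 9 of the asterisked Notch genes have their blue points to the left, and 12 of the asterisked smooth muscle genes have them to the right.

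Calls among matrix genes beyond cartilage went in both directions, with more falls. Beside 30.9% of all genes, calls took in 56% of collagen chains and 50% of small leucine-rich proteoglycans. For elastic fibre genes, proteases and inhibitors, and integrin and laminin chains the shares were 36.4%, 40% and 46.7%. Of 25 tested collagen chains 12 were lower and 2 higher (median log2 fold change -0.82), and 2 were lower with close pairs as 1 sample. *Col5a3*, a fibrillar chain, fell from 15201 and 10933 to 879 and 872 (log2 fold change -3.88, SE 0.28, adjusted p = 1.6e-05), whereas *Col1a1*, the main bone and skin collagen gene, read 47053 and 187626 in G34W and 349916 and 342314 in G34W K36R (adjusted p = 0.0178, but 0.0881 and 0.0848 without G34W K36R replicate 1 or 2). Small leucine-rich proteoglycans, which coat collagen fibrils, had 5 lower and none higher of 10 (median -1.40), 2 of them with close pairs as 1. Decorin (*Dcn*) was at 2701 and 882 in G34W, at 47.0 and 50.2 in G34W K36R and at 22703 and 23569 in G34W K27R. *Prelp* fell from 14769.9 and 40329 to 1637 and 1691. Among 22 elastic fibre genes 6 were lower and 2 higher, and 1 was lower with close pairs as 1. *Mfap5*, a microfibril gene, fell from 7366 and 4962 to 955 and 969, and *Ltbp2* rose from 13083 and 10571 to 31094 and 30459. *Serpine2*, a protease inhibitor gene that stands among 30 matrix proteases and inhibitors with 8 lower and 4 higher (2 and 1 with close pairs as 1), fell from 62188 and 59825 to 5228 and 5444. *Itgb4* and *Lamb3*, an integrin and a laminin chain of epithelial attachment, fell from 2070.5 and 1959 to 104 and 114 and from 739 and 3459 to 32.3 and 38.8. Of the 30 chains of this list 8 were lower and 6 higher (2 and 0 with close pairs as 1). Without G34W K36R replicate 1 the collagen count was 8 lower, and without replicate 2 it was 5. Without either, proteases and inhibitors numbered 4 lower, and integrin and laminin chains 5 and 3 lower. The elastic fibre genes higher were 5 and the proteases higher 7 without G34W replicate 2. The integrin *Itga11*, a collagen receptor chain, moved the other way, from 80.7 and 396 to 3178 and 3167.

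Adipocyte genes were lower as a list, and here the G34W libraries themselves disagreed. Of 25 tested members 10 were lower and none higher (40% called beside 30.9% of all genes, median log2 fold change -2.58). *Adipoq*, the adiponectin gene, read 4082 and 7.65 in the 2 G34W libraries and 2.93 and 1.76 in G34W K36R, and its adjusted p of 0.0496 rose to between 0.0613 and 0.183 when any 1 library of 6 groups, G34W K36R among them, was left out. The 4 adipocyte markers summed to 12654 and 82.0 in G34W and to 744 and 782 in G34W K36R, so that G34W K36R lay between the 2 G34W libraries. Their part in the result was not tested. The count of adipocyte genes called lower was 22 without G34W replicate 2, 8 without G34W replicate 1, 5 without G34W K36R replicate 1 and 2 with close pairs as 1 sample. Members whose G34W libraries were alike also fell. *Cebpa*, a transcription factor gene of adipocyte differentiation, went from 1953 and 1667 to 130.1 and 174 (log2 fold change -3.58, SE 0.20, adjusted p = 5.1e-06, and 0.0168 with close pairs as 1). *Pparg*, the master regulator of the fat cell programme, read 2384 and 582 in G34W and 1107 and 1223 in G34W K36R (adjusted p = 0.979). Its direction rested on the G34W library used: *Pparg* was called higher without G34W replicate 1 (log2 fold change 1.0, adjusted p = 0.00071) and lower without replicate 2 (log2 fold change -1.03, adjusted p = 0.00037).

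Secreted signals and their receptors followed, with falls outnumbering rises in the Wnt, Notch and TGF-beta families. Of 39 Wnt pathway genes 16 were lower and 3 higher (48.7% called beside 30.9% of all genes, median log2 fold change -0.87). The extracellular Wnt antagonist *Sfrp2* fell from 7748 and 2786 to 61.6 and 52.9 (log2 fold change -6.32, SE 0.52, adjusted p = 3.1e-05), and it was the only member called with close pairs as 1 sample (adjusted p = 0.0241). *Frzb*, another antagonist, fell from 466 and 478 to 16.6 and 26.4, and the agonist *Rspo1* from 52.6 and 49.2 to 4.89 and 0.882. The receptor *Fzd9* fell from 435 and 631 to 61.6 and 48.5. Leaving out G34W K36R replicate 1 gave 9 lower Wnt genes, and replicate 2 gave 10.

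Of 14 Notch pathway genes 9 were lower and 1 higher (71.4% called beside 30.9% of all genes, median log2 fold change -1.44). The receptor *Notch1* fell from 6745 and 6045 to 1433 and 1388, and the target *Hey1*, a transcriptional repressor gene, from 1299 and 833 to 83.2 and 78.5. *Hey1* was the 1 member called with close pairs as 1 sample (adjusted p = 0.0313). The target *Hey2* fell from 219 and 239 to 60.7 and 46.7 and the ligand *Jag2* from 41.3 and 105 to 13.7 and 18.5, but *Hey2* lost its call without either library of either group (adjusted p = 0.0608 to 0.129) and *Jag2* without G34W replicate 2 or either G34W K36R library (0.0515 to 0.0936). The count of lower Notch genes was 5 without G34W K36R replicate 2 and 6 without replicate 1.

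Of 36 TGF-beta and BMP pathway genes 12 were lower and 5 higher (2 and 1 with close pairs as 1). The BMP antagonist *Grem1* rose from 163 and 61.2 to 2699 and 2638 (adjusted p = 5.5e-05, and 0.0276 with close pairs as 1). The antagonist *Chrdl1* fell from 414 and 89.7 to 0.978 and 6.17, and the receptor *Acvrl1* from 260.0 and 96.2 to 1.96 and 4.41. BMP antagonists therefore moved in both directions. The share called was 47.2% of TGF-beta and BMP genes, 42.9% of FGF genes and 47.1% of IGF system genes, beside 30.9% of all genes. Among 21 FGF genes 5 were lower and 4 higher; the receptors *Fgfr3* and *Fgfrl1* fell from 1605 and 2120.2 to 154 and 159.6 and from 10937 and 7798 to 1565 and 1502, both also with close pairs as 1 (adjusted p = 0.0161 and 0.0192). In the IGF system 4 of 17 were lower and 4 higher (1 and 1 with close pairs as 1). The growth factor *Igf1* fell from 11137 and 4154 to 149 and 135 (log2 fold change -5.58, SE 0.45, adjusted p = 2.8e-05), and *Igf2bp2*, which encodes an RNA-binding protein, rose from 625 and 715 to 3512 and 3291. Without either G34W K36R library the counts of higher genes were 3 for the TGF-beta and BMP list and 2 for the FGF and IGF lists, and 1 IGF gene was lower.

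Contractile genes of smooth muscle had more rises than falls. The share called was 52% of them and 52.9% of osteoblast genes, beside 30.9% of all genes. Of 25 tested, 12 were higher and 1 lower (median log2 fold change 0.69), none of them called with close pairs as 1 sample. *Itga8*, an integrin chain of contractile cells, rose from 119 and 32.8 to 1081 and 1143 (log2 fold change 4.13, SE 0.48, adjusted p = 0.00026, and 0.0609 with close pairs as 1). *Tpm2*, a tropomyosin gene, rose from 698 and 952 to 3913 and 3849. *Acta2*, smooth muscle actin, read 60029.5 and 65641 in G34W and 153841 and 152871 in G34W K36R, with an adjusted p of 0.042 that was 0.0637 to 0.152 when a library of G34W, G34W K36R, G34W K27R, G34R or K27R was left out. *Tagln*, transgelin, read 2560.3 and 1375 against 7376 and 7333, and lost its call without G34W replicate 2 (0.11) or either G34W K36R library (0.104 and 0.103). Defining markers had fitted changes of the opposite sign without a call: *Myh11*, smooth muscle myosin, read 176 and 35.0 in G34W and 42.1 and 30.9 in G34W K36R (adjusted p = 0.195), and *Cnn1*, calponin, 415 and 127 against 78.3 and 71.4 (adjusted p = 0.0634). The number of contractile genes higher was 8 without G34W replicate 1, 6 without G34W replicate 2 (with 4 lower) and 4 without either G34W K36R library. Of 17 osteoblast genes 6 were higher (3 without either G34W K36R library) and 3 lower. *Tnfrsf11b*, which encodes the decoy receptor osteoprotegerin, rose from 2104 and 3335 to 18896 and 18497 (adjusted p = 9.4e-06, and 0.0227 with close pairs as 1), and *Alpl*, alkaline phosphatase of mineralising cells, fell from 57.3 and 96.2 to 4.89 and 5.29. *Runx2*, the master regulator gene of bone, read 2200.4 and 2451 against 2426 and 2449 (adjusted p = 0.735).

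**Figure D4:**
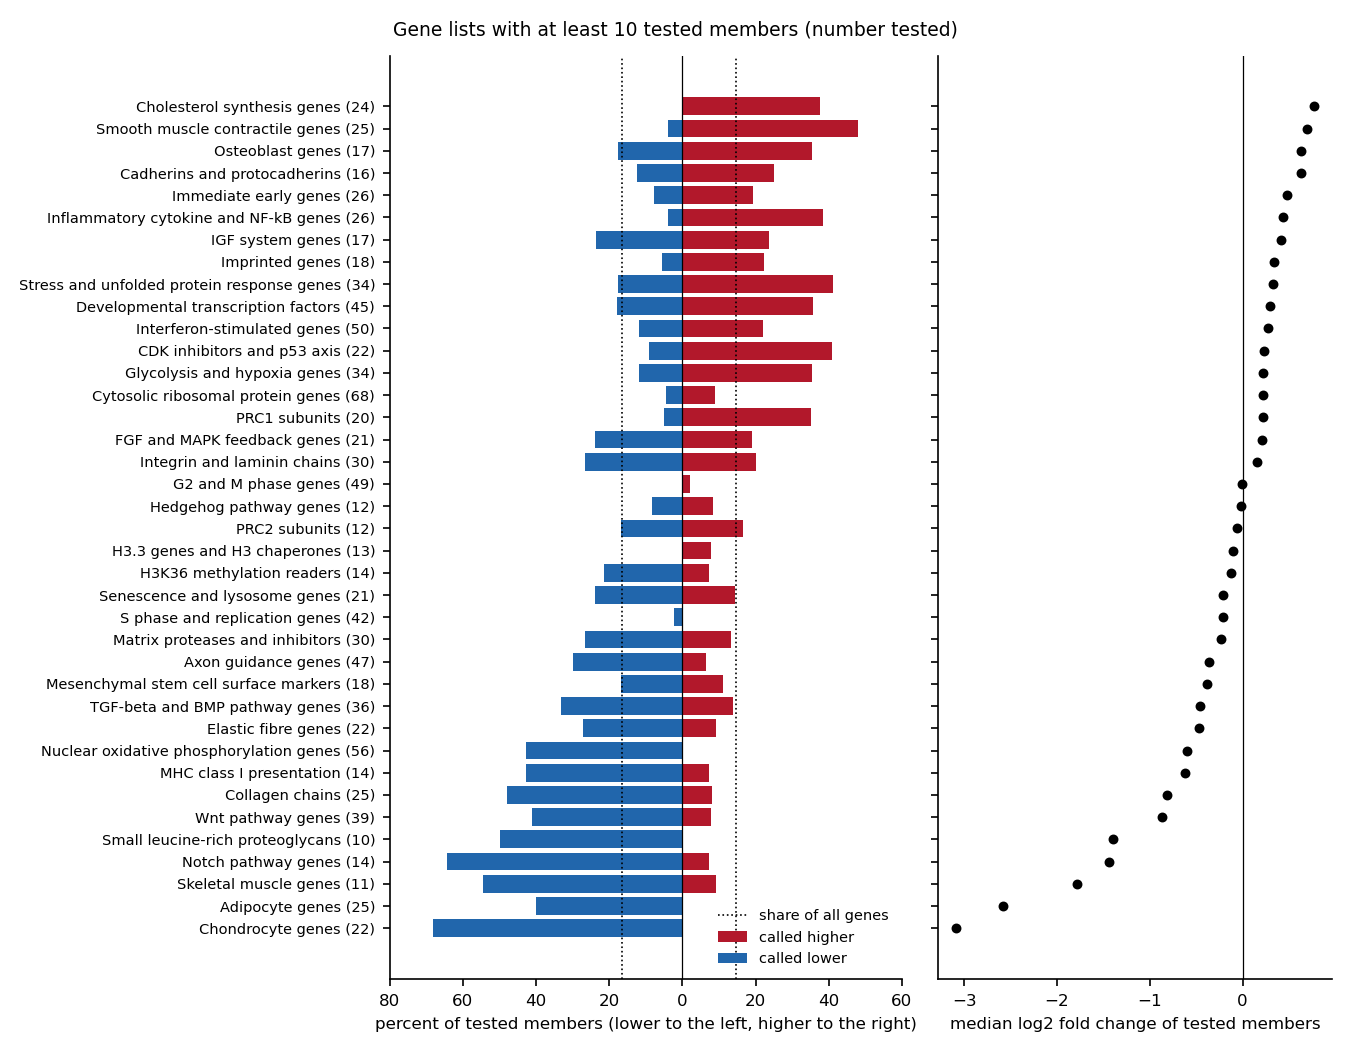
Left, percent of tested members called higher (red, to the right) or lower (blue, to the left) in G34W K36R for each list with at least 10 tested members, with dotted lines at the shares over all genes (14.5% higher, 16.4% lower). Right, the median log2 fold change of the tested members, from -3.09 for chondrocyte genes to 0.77 for cholesterol synthesis genes.

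Genes of the Polycomb complex PRC2 were called about as often as all genes, and those of PRC1 somewhat more often (40%). Of the 12 PRC2 genes 2 were higher and 2 lower (33.3% called beside 30.9% of all genes). *Suz12*, a core subunit, rose from 1609.5 and 2257 to 4433 and 4374 (log2 fold change 1.21, SE 0.20, adjusted p = 0.00193), while the catalytic *Ezh2* read 1304 and 2005 against 2055 and 2214 (adjusted p = 0.227) and *Eed* 864 and 1046 against 905 and 982 (adjusted p = 0.97). *Phf19*, a subunit that reads methylated lysine 36, fell from 249.9 and 412 to 50.9 and 82.0 (adjusted p = 0.00209). None of the 12 was called with close pairs as 1 sample. Of 20 PRC1 genes 7 were higher and 1 lower, and the higher ones numbered 4 without G34W replicate 1 and 2 without either G34W K36R library. PRC2 genes higher numbered 4 without G34W replicate 2, and 1 was lower without either G34W K36R library. *Bmi1* rose from 3706 and 3520.2 to 6286 and 6397, and *Cbx7* fell from 266 and 306 to 159 and 159.6, the latter with an adjusted p of 0.0605 and 0.0624 without G34W K36R replicate 1 or 2.

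Genes for enzymes that methylate lysine 36 were called less often than all genes, 1 of 7 (14.3% beside 30.9%). The gene called, *Nsd1*, was higher, at 3043 and 3567 in G34W and 6553 and 6660.2 in G34W K36R (log2 fold change 1.0, SE 0.29, adjusted p = 0.0252). Its call was lost without G34W replicate 1 (log2 fold change 0.89) or either G34W K36R library (1.02 and 0.99). *Setd2* read 3643 and 3247 against 5213 and 5382 (adjusted p = 0.127), and *Whsc1*, the gene of NSD2, 1896 and 3793 against 4092 and 3992 (adjusted p = 0.211). With the trend over transcript length removed, the fitted changes of *Setd2* and *Whsc1* became 0.22 and 0.28, and that of *Nsd1* 1.25 (adjusted p = 0.033). The length used for *Nsd1* was 1149 bases, the median over its annotated transcripts, so it was corrected as a short gene. Whether another length would give the same change was not tested. The H3.3 genes did not pass the test: *H3f3a* had an adjusted p of 0.174 and *H3f3b*, at 42967 and 35895 against 29642 and 29621, one of 0.0725. Whether transgene reads were counted in these genes is not given in the sources used here. Of the DNA methylation genes tested, 50% were called beside 30.9% of all genes. Of 8 DNA methylation genes 4 were lower and none higher (2 lower without either G34W library and none without either G34W K36R library), among them *Dnmt3a* (2924 and 2088 against 1389 and 1433) and *Tet1* (489 and 305 against 114 and 96.1). Both lost their calls without G34W replicate 1 (adjusted p = 0.141 and 0.0965) or either G34W K36R library (0.122 and 0.106 for *Dnmt3a*, 0.0772 and 0.111 for *Tet1*). None of these genes was called with close pairs as 1 sample.

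Cell cycle genes were nearly without calls. In S phase 1 of 42 was lower and none higher, and in G2 and M phase 1 of 49 was higher and none lower, beside 30.9% of all genes. The 2 called genes, *Tk1* (thymidine kinase, lower) and *Smc4* (condensin, higher), lost their calls without either G34W K36R library (adjusted p = 0.11 to 0.124), *Tk1* also without G34W replicate 2 (0.134) and *Smc4* without G34W replicate 1 (0.185), and neither was called with close pairs as 1 sample. The inhibitors of the *Ink4* locus, frequent Polycomb targets, were low and not called: *Cdkn2a* read 37.5 and 39.4 in G34W and 27.4 and 25.6 in G34W K36R (adjusted p = 0.229), and *Cdkn2b* 61.9 and 44.8 against 36.2 and 29.1 (adjusted p = 0.3). Among 22 genes of the CDK inhibitor and p53 axis 9 were higher and 2 lower, none with close pairs as 1. *Ccnd2*, cyclin D2, rose from 5786 and 3736 to 15494 and 15378 (adjusted p = 0.00034), and *Cdkn2d*, an inhibitor of cyclin D kinases, fell from 1408 and 1700.4 to 677 and 593. Of this axis 50% of the tested genes were called, beside 30.9% of all genes. The count of higher members was 4 without G34W K36R replicate 2 and 5 without replicate 1. Imprinted genes were called at about the rate of all genes: of 18, 4 were higher (7 without G34W replicate 2) and 1, *Dcn*, lower, 27.8% beside 30.9%, and *Dcn* alone was called with close pairs as 1. *Grb10*, a growth-restraining adaptor gene, rose from 8215 and 16287 to 49248 and 49327 (adjusted p = 0.00054), and *Peg10* from 188 and 432 to 2109 and 2061. *Mest* read 4590.0 and 5234 against 2364 and 2393 (adjusted p = 0.0723) and *Igf2* 1249.7 and 212 against 1552 and 1556 (adjusted p = 0.119).

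Calls among inflammatory genes were mainly rises and those among antigen presentation genes mainly falls, though 15 of 26 and 7 of 14 members were not called. The shares called were thus 42.3% and 50%, beside 30.9% of all genes. Of 26 cytokine and NF-kB genes 10 were higher and 1 lower (median log2 fold change 0.43); without G34W replicate 2, 6 were lower, and without G34W K36R replicate 2, 6 were higher. The chemokine genes *Ccl7* and *Ccl2* rose from 72.3 and 35.0 to 783 and 692 and from 138 and 133 to 1025 and 934 (adjusted p = 6.7e-05 and 0.00052), the former also with close pairs as 1 (adjusted p = 0.0313). *Ptgs2*, the inducible cyclooxygenase, rose from 100.4 and 511 to 2719 and 2713. Of the 4 tested genes of the *Serpina3* cluster 3 were higher (75% called beside 30.9% of all genes), with *Serpina3f* at 8.35 and 3.27 in G34W and 96.3 and 86.6 in G34W K36R. With close pairs as 1 sample *Serpina3g* was called, and *Serpina3f* and *Serpina3i* were not. These genes are close relatives, and reads may be split among them. Of 14 genes of MHC class I presentation 6 were lower and 1 higher (median -0.62). *Psmb8*, an immunoproteasome subunit, fell from 109 and 31.7 to 5.87 and 9.70 (adjusted p = 0.00456), and *H2-T23*, a non-classical class I gene, from 1178 and 1024 to 451 and 444. *Tap1*, a peptide transporter gene, read 731 and 549 against 232 and 200.1 and lost its call without G34W replicate 1 (0.0792) or either G34W K36R library (0.0678 and 0.101). Class I genes called lower numbered 3 without G34W replicate 1 and 2 without G34W K36R replicate 1, and none was called with close pairs as 1. Interferon-stimulated genes were called about as often as all genes (34% beside 30.9%), 11 higher and 6 lower of 50, with none called with close pairs as 1. Without G34W K36R replicate 1 they were 6 and 2, and without replicate 2 they were 6 and 1. Members of 1 kind were called both ways. *Iigp1*, an interferon-inducible GTPase, fell from 547 and 180.4 to 18.6 and 31.7. *Tgtp1*, another such GTPase, read 27.3 and 140.2 against 369.6 and 282 (adjusted p = 0.0168). However, *Tgtp1* also differed within pairs that were otherwise close, at 412 and 70.5 in H3.3 wild type and 1047 and 2222 in K27R. Its level, and so its rise, is therefore uncertain. The call of *Tgtp1* was lost without G34W replicate 1 or either G34W K36R library.

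Among metabolic lists, called cholesterol synthesis genes were all higher. Of 24 cholesterol synthesis genes 9 were higher and none lower (37.5% called beside 30.9% of all genes, median log2 fold change 0.77). *Idi1*, isopentenyl diphosphate isomerase, rose from 6777 and 10211 to 23449 and 23657 (log2 fold change 1.50, SE 0.29, adjusted p = 0.00436). The count was 3 without G34W replicate 1, 17 without G34W replicate 2, 2 without either G34W K36R library, 5 after quantile normalization and 0 with close pairs as 1. Stress and unfolded protein response genes had 14 higher and 6 lower of 34, glycolysis and hypoxia genes 12 higher and 4 lower of 34, and neither list had a call with close pairs as 1. *Chac1*, a target of the integrated stress response, rose from 587 and 1139 to 3729 and 3755, and *Sdf2l1*, an endoplasmic reticulum chaperone gene, fell from 1188 and 1710.1 to 388 and 354. *Ero1l*, an oxidase of protein folding, rose from 1850.2 and 3151 to 8133 and 8021. Calls took in 58.8% of the stress list and 47.1% of the glycolysis list, beside 30.9% of all genes. Without G34W K36R replicate 1 or 2 the higher members numbered 4 in the stress list, and 6 and 5 in the glycolysis list.

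Nuclear genes of oxidative phosphorylation were lower: 24 of 56 (42.9% called beside 30.9% of all genes), with none higher and a median log2 fold change of -0.60. *Cox7a2*, a subunit of cytochrome oxidase, fell from 3691 and 3136 to 1158 and 1095 (adjusted p = 0.00095), and *Ndufa1* and *Ndufa2*, subunits of complex I, from 1817 and 1316 to 542 and 554 and from 3125 and 2616 to 1058 and 1051. The count was 13 without G34W replicate 1, 12 and 9 without G34W K36R replicate 1 and 2, and 0 with close pairs as 1. These genes are short, and transcript length moved with the comparison. The median log2 fold change climbed from -0.54 for transcripts of up to 600 bases to 0.34 for those over 6000 bases. The share called lower went from 31.1% to 8.24% and the share called higher from 6.12% to 22.4%. Against H3.3 wild type the shortest class was at -0.69 and -0.73 in G34W K36R, at 0.06 and -0.23 in G34W and at -0.08 to -0.85 in the H3.1 libraries. The class over 6000 bases was at 0.37 and 0.38 in G34W K36R and at -0.40 in H3.1 wild type replicate 2. In the other H3.1 libraries it was at 0.27 to 0.44. With a smooth length trend removed, which was added once the length pattern had been noticed, the list still had 24 lower, with 1 higher and a median of -0.24, and 4387 of 12537 genes were called in all (35%). Cytosolic ribosomal protein genes, also short, had 6 higher and 3 lower of 68, and 38 higher and 2 lower with the trend removed; none was called with close pairs as 1. They had 20 higher without G34W replicate 2 and none without G34W replicate 1 or either G34W K36R library. The part of length in these results beyond that fit was not tested.

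**Figure D5:**
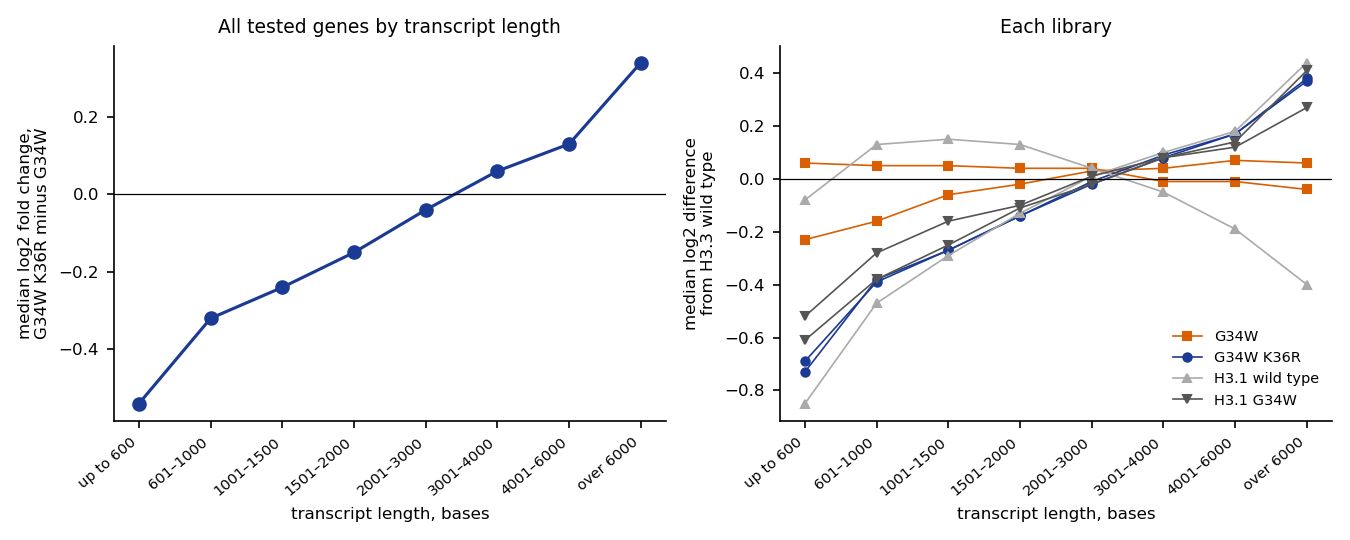
Left, median log2 fold change of G34W K36R over G34W for tested genes in 8 classes of transcript length, rising from -0.54 to 0.34. Right, the median log2 difference of each library from H3.3 wild type in the same classes: both G34W K36R libraries and 3 of the 4 H3.1 libraries rise with length, while H3.1 wild type replicate 2 peaks at 0.15 and falls to -0.40 and the G34W libraries stay between -0.23 and 0.07.

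A second comparison set the K36R change against a K27R change on the same G34W background, K27 being the residue that PRC2 methylates. G34W K36R differed from G34W K27R at 4660 genes (36.9%), 2388 of them higher (18.9%) and 2272 lower (18%) in G34W K36R; the count was 186 with close pairs as 1 sample, 10165 in a fit of these groups alone and 2409 to 2471 when a library of either group was left out. Of 50 interferon-stimulated genes 49 were lower in G34W K36R than in G34W K27R (median log2 difference -5.11) and none higher, and all 14 tested class I presentation genes were lower. *Iigp1* was at 18.6 and 31.7 in G34W K36R and at 15621 and 15359 in G34W K27R (adjusted p = 1.1e-05). All 49 tested G2 and M phase genes, and 21 of 42 in S phase, were higher in G34W K36R. *Cdkn2a* and *Cdkn2b* were lower in G34W K36R, at 27.4 and 25.6 against 427 and 456 and at 36.2 and 29.1 against 759 and 797 (adjusted p = 1.5e-05 and 8.5e-05). Both lie in the *Ink4* locus, whose products stop the cycle at its entry to S phase. *Eln* was lower in G34W K36R in this comparison too (log2 difference -7.14, adjusted p = 8.7e-07).

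Set against H3.1 G34W, the group nearest to it, G34W K36R differed at 399 genes (3.16%), 332 higher (2.63%) and 67 lower (0.53%). The count was 0 in a fit of these groups alone (limma, 1875 at an unadjusted p under 0.05) and 0 with close pairs as 1 sample (limma, 433), and it ran from 67 to 1706 as single libraries were left out, the former without G34W K36R replicate 1 and the latter without H3.1 G34W replicate 2. *Serpina3g* was higher than in H3.1 G34W (854 and 874 against 78.3 and 205, adjusted p = 0.0178). *Mest* and *Igf2* also were, at 2364 and 2393 against 226 and 731 and at 1552 and 1556 against 11.4 and 43.1 (adjusted p = 0.00791 and 0.00193). *Fosb*, an immediate early transcription factor gene, was at 935 and 948 in G34W K36R, 121 and 14.2 in G34W, 33.3 and 41.8 in G34W K27R and 33.2 and 20.8 in H3.1 G34W, and passed the test against each. Against G34W it was not called in the limma fit of the 4 libraries alone (adjusted p = 0.0829) or with close pairs as 1 sample. In all, 29 genes were higher and 14 lower in G34W K36R against each of these 3 groups, the 14 including *Gm14434* and *Gm14430*, named after their values were seen, which have identical values in every library and count as 1 signal. Among the genes called against G34W, the G34W K36R mean lay within the range of the 4 H3.1 libraries for 1938 and outside it for 1963. That range is wide, since the log2 ratio within a pair had an SD of 0.489 in H3.1 wild type and 0.465 in H3.1 G34W. The same split was not counted over all tested genes, so these numbers do not measure likeness to H3.1.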

How the data were processed

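Polyadenylated RNA of 16 C3H10T1/2 libraries, 2 per histone transgene, was sequenced. Per the submitters' processing notes, the authors estimated counts per gene with RSEM 1.2.4 on mm9, and per the file names they median-normalized them; aligner, annotation and filters are not given in the sources used here. The deposited values are therefore a normalized signal per gene. Only 41.6% to 47.5% of the values above 0 come within 0.01 of a whole read, so no count model was run. A second deposited table of 180 genes repeats the same values. The smallest step in each library gives depths of 26.02 to 49.12 M reads, and 3 reads, the floor, are worth 2.27 to 3.74. Intervals and floors reflect counting error only.

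Tests used log2(value + 1), which understates fold changes of low genes. A gene was tested if its mean over the 4 libraries reached 10. The model was limma 3.58.1 (R 4.3.3, statmod 1.5.0; eBayes with trend and robust) with every group in 1 fit, two-sided p-values, Benjamini-Hochberg adjustment over the 12640 genes, and 0.05 as threshold. The pair of H3.3 wild-type libraries showed only sampling noise between them where genes had whole reads (chi-square p = 0.879) and slightly more over all genes (chi-square per degree of freedom 1.234, p = 7.67e-64), where estimated counts are not whole reads, so their average entered as 1 sample. Alternatives varied the pseudocount, the filter, the scaling, the moderation, the samples fitted, the replicate block, single libraries left out, and, chosen after seeing the data, a length trend.

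Genes were grouped in 49 lists. The members and lists were chosen with earlier results of these data known. Named genes are the 15 largest called changes in each direction (no overlap of libraries, no provisional symbol, and 50 or more as the mean of either group), the 4 largest called changes in each list described (3 genes where none was called), and a set of fixed genes; other names are list members. Of these genes 2, 1 of them among the 15 rises, are not reported here. Folds printed without an SE are ratios of means. Transcript lengths are medians over the transcripts of each gene in GENCODE M21, and promoters are from RefSeq.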

Additional observations from a re-analysis of the deposited data

How the results depend on the processing

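Against G34W, the count of 3901 genes stayed within 1.5 times under other pseudocounts and filters, TMM rescaling (3878), quantile normalization (4201), separate wild-type libraries and the length trend. It was 1387 (731 higher, 656 lower) in a fit of the compared groups alone and 132 (50 and 82) with close pairs as 1 sample; single libraries left out gave 1663 to 4904 (736 to 2402 higher, 927 to 2513 lower). Against G34W K27R the 4660 became 10165 alone, 186 with close pairs as 1 and 2409 to 5737 with a library left out. Against H3.1 G34W the 399 became 608 with wild-type libraries separate, 0 alone and with close pairs as 1, and 67 to 1706 with a library left out. *Pparg*, not called (-0.02), was called higher (1.0) without G34W replicate 1 and lower (-1.03) without replicate 2; the cause was not tested. Replicate numbers did not pair the samples (28 pairs of groups, r from -0.287 to 0.097; 0.017 for G34W with G34W K36R), and with a replicate block the counts were 3609, 4360 and 328. Where 1 library of a group was left, its spread was taken from the remaining groups.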

Other observations

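Median changes differed between chromosomes, given here as a description with no test. The median log2 fold change of G34W K36R over G34W was 0.27 on chromosome 6 (603 tested genes, 167 higher and 53 lower), 0.27 on X (108 higher and 45 lower of 414) and -0.22 on chromosome 9 (56 higher and 165 lower of 699), and lay between -0.15 and 0.18 on the other 17 autosomes. The shares called were 36.5% on chromosome 6, 37% on X and 31.6% on chromosome 9. Over all genes the share was 30.9% (14.5% higher and 16.4% lower). Chromosome 15, with a median of 0.18, had the larger share of 38.3% (129 higher and 65 lower of 507). Against H3.3 wild type, the chromosome 6 median was 0.36 in both G34W K36R libraries, 0.35 to 0.40 in the 4 H3.1 libraries, 0.06 and 0.04 in G34W and 0.22 to 0.23 in G34W K27R. On chromosome 9 it was 0.02 and -0.01 in G34W K36R and 0.24 and 0.22 in G34W.

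Markers of other cell types differed in level between types. Of 4 endothelial markers only 2 were tested, and both were called lower. *Pecam1* and *Tie1* fell below the filter. *Cdh5*, the endothelial cadherin gene, read 36.6 and 70.0 in G34W and 0 in both G34W K36R libraries, at least 19.1-fold lower. *Tek*, an angiopoietin receptor gene, read 829.8 and 3037 in G34W against 395 and 331. The call of *Tek* was lost without G34W replicate 2 or either G34W K36R library. Neither *Cdh5* nor *Tek* was called with close pairs as 1 sample. In the wider endothelial list 2 of 6 tested genes were called (33.3% beside 30.9% of all genes). The 4 macrophage and blood markers summed to 57.3 and 66.7 in G34W and 40.1 and 31.7 in G34W K36R, with *Ptprc* at 0 in all 4 libraries. The neural marker *Gfap* read 216 and 23 in G34W against 4.89 and 5.29 (adjusted p = 0.00948, but 0.0573 and 0.0545 without G34W K36R replicate 1 or 2). The skeletal muscle actin gene *Acta1* read 301 and 349 against 67.5 and 79.3, with an adjusted p of 0.0471 that was 0.0622 to 0.181 when a library of any group but H3.3 wild type and H3.1 G34W was left out. Proliferin genes, secreted relatives of prolactin in growing fibroblasts, were higher in both tested members. *Prl2c3* was at 0 in both G34W libraries and at 33.1 and 27.4 in G34W K36R, at least 9.92-fold higher, and these genes are near-identical copies, so their assignment is uncertain.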
